A study of Rattus norvegicus with 18 samples.

Results

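Genes that run the late transcription programme of the male germ line, or store its messages, were followed in testis RNA of chronically sleep-restricted rats and of control rats. The set was named by 9 gene symbols. It holds the transcription regulators *Crem*, *Rfx2*, *Sox30*, *Taf7l* and *Tbpl1* and the RNA-binding proteins, helicases and Argonaute protein of germ cell messages, *Ybx2*, *Ddx4*, *Ddx25* and *Piwil1*. The members are the rows of the expression table whose RefSeq accession maps to these symbols. Of 7016 transcripts, 6 belong to the set, and they come from 5 genes: *Crem* with 2 transcripts, and *Rfx2*, *Tbpl1*, *Ybx2* and *Ddx25* with 1 each. No row was matched to *Sox30*, *Taf7l*, *Ddx4* or *Piwil1*, which are not analysed here.

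The RNA libraries were made from poly(A) RNA of whole testis of Wistar rats aged 8 weeks, with 3 libraries from a chronic sleep restriction (CSR) group and 3 from a control group. The labels name no other treatment and do not describe how sleep was restricted. Nothing in them ties a library to a single animal, and p-values therefore cover only the spread among libraries, part of which may be technical. The submitters' codes for control libraries 1 and 2 are alike except for the final digit, so both may come from 1 animal, and errors given with n = 3 for control would then rest on fewer animals. Levels are FPKM, fragments scaled to transcript length and to the mapped fragments of the library, so levels of different transcripts can be set side by side.

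Spermatids are the haploid cells that follow meiosis. CREM, a cAMP-responsive activator in spermatids, binds the cAMP response element (CRE) in promoters of genes for sperm chromatin and tail proteins, and in mice without it spermatids do not mature. RFX2 binds the X-box, a motif of cilium and flagellum genes, and TBPL1 is a relative of the TATA-binding protein. In mice, loss of either gene stops development at the round spermatid. Transcription ends as the nucleus condenses, so many messages are made early and kept untranslated. YBX2, a germ cell Y-box protein, binds and stores such messages, and DDX25, a gonadotropin-regulated RNA helicase, carries them between nucleus, chromatoid body and ribosomes.

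Sequence around the annotated starts of the transcription regulators is shown because the motifs these factors bind can be read in it. The windows run from 250 bases before to 50 bases after a start, 5′ to 3′ on the gene's strand, and are RefSeq sequences of the GRCr8 build. They matched 4 of the 5 measured genes: *Crem* with 3 starts, and *Rfx2*, *Tbpl1* and *Ddx25* with 1 each. Capitals mark the CRE core TGACG on either strand, which the full CRE TGACGTCA contains in both directions, and GTTGCC on either strand, an arm of the X-box.
Crem window 1 (chr17:58933816-58934115, plus strand): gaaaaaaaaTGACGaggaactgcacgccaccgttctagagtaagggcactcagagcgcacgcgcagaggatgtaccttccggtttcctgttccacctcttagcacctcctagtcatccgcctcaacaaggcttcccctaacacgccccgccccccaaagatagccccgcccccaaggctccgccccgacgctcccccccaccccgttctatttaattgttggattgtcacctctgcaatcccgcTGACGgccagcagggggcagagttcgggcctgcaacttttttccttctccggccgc
Crem window 2 (chr17:58984547-58984846, plus strand): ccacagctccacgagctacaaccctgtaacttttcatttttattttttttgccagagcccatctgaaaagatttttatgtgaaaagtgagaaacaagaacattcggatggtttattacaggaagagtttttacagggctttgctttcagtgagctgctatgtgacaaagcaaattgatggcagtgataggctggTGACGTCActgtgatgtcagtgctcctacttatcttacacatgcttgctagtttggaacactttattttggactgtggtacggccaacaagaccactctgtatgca
Crem window 3 (chr17:58985240-58985539, plus strand): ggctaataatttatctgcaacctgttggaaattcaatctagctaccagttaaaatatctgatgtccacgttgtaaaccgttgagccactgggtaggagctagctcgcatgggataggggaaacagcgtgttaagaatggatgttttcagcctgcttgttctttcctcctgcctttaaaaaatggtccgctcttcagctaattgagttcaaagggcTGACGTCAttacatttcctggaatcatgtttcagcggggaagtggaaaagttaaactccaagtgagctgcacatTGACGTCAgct
Rfx2 (chr9:1758097-1758396, minus strand): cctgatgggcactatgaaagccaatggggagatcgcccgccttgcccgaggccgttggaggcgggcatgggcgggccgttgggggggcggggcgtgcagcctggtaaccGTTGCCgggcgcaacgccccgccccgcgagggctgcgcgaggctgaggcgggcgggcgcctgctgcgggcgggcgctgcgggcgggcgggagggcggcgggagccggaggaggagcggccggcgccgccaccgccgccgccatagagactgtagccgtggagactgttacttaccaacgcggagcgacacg
Tbpl1 (chr1:24597371-24597670, plus strand): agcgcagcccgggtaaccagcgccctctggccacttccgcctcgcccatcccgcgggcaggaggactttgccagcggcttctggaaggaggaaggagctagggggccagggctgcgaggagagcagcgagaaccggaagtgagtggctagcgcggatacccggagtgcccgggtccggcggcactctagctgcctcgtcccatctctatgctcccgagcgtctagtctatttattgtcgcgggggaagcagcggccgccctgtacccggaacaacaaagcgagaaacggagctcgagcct

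Positions are counted from the start, with negative ones before it. The full CRE was found at 1 place in *Crem* window 2, from position -56, and at 2 places in *Crem* window 3, from positions -35 and 40. *Crem* window 1 held the core TGACG at 2 places and no full CRE. Over all 33469 windows of this length, 1.83% held the full CRE and 21.2% the core on either strand. The *Rfx2* window held the X-box arm GTTGCC from position -141, an arm that 12.2% of all windows held on either strand. Windows of *Tbpl1* and *Ddx25* held none of these letters. GC content was 75.7% in the *Rfx2* window, 72.7% in that of *Ddx25* and 65.7% in that of *Tbpl1*, against a median of 51.7% over all windows. *Crem* windows 2 and 3 were lower, at 41.3% and 44.0%, with *Crem* window 1 at 59.7%. These matches describe letters and not binding, and the expression table does not say which start a *Crem* transcript uses.

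The libraries were alike in median level, between 3.69 and 3.97 FPKM, and their read depth is unknown. CSR libraries held between 1000 and 1415 transcripts listed at 0, and control libraries between 275 and 423. Control library 3 stood closer to the CSR libraries than the other controls did: its correlation with them across transcripts was 0.911 to 0.921, against 0.874 to 0.892 for control libraries 1 and 2. Its correlation with control libraries 1 and 2 was 0.904 to 0.913, while those 2 correlated by 0.932. CSR libraries correlated with each other by 0.908 to 0.914. Genes are not independent replicates, so these values only describe the libraries. Testis identity was plain from the germ cell transcripts, with *Tnp1*, a transition protein of spermatid chromatin, at 3903, 7202 and 7415 FPKM in CSR and 4298, 4411 and 7730 FPKM in control.

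The members spanned more than 2 orders of magnitude in level. *Ybx2* (NM_001305212) averaged 471 FPKM over all 6 libraries and ranked 29th of 7016 transcripts, with a rank between 16 and 39 in single libraries. *Ddx25* (NM_031630) averaged 126 FPKM and ranked 178th. *Tbpl1* (NM_001127201) and *Rfx2* (NM_001106877) averaged 11.2 and 10.6 FPKM. The *Crem* transcripts stood lowest, at 1.93 FPKM for NM_001271101 and 1.09 FPKM for NM_001110860. *Ybx2* made up between 67.3% and 82.5% of the summed level of the 6 transcripts in each library. The step from *Ybx2* to *Ddx25*, that from *Ddx25* to *Tbpl1* and that from *Rfx2* to the higher *Crem* transcript held in 6 of 6 libraries. *Tbpl1* exceeded *Rfx2* in only 3 of 6 libraries, and *Crem* NM_001271101 exceeded NM_001110860 in 4 of 6, so neither of these neighbours can be ordered.

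**Figure D1:**
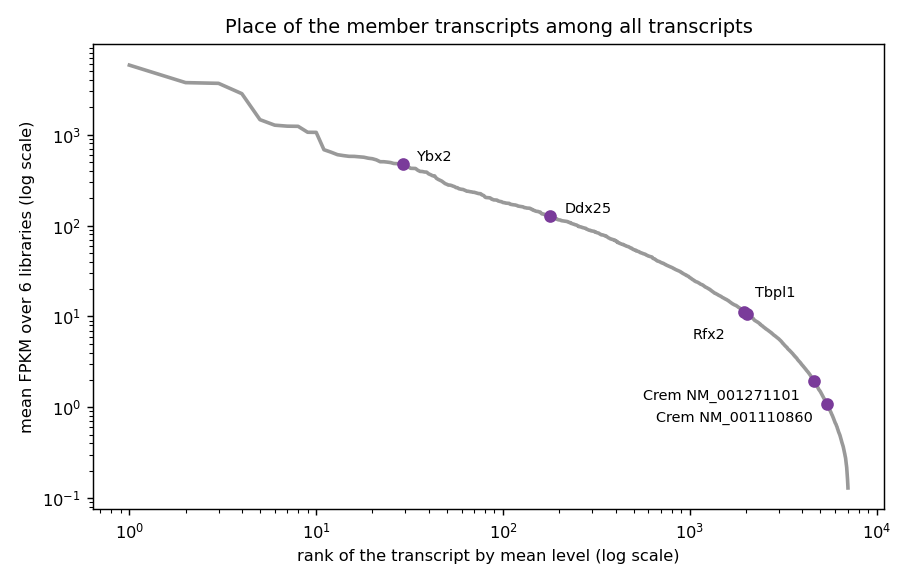
Mean FPKM over 6 libraries (y axis, log scale) against rank by that mean (x axis, log scale) for all transcripts above 0 (grey line), with the 6 member transcripts as points. *Ybx2* lies at rank 29 and *Ddx25* at rank 178, while *Tbpl1* and *Rfx2* lie together near 11 FPKM and both *Crem* transcripts lie below 2 FPKM.

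None of the 6 member transcripts passed the test between CSR and control. All 6 passed the filter on low values (at least 1 FPKM in at least 3 libraries), and none had an adjusted p under 0.05 by limma on log2(FPKM + 1), where 0.442% of the 5657 transcripts tested were called. None had an unadjusted p under 0.05, against 13.2% of all tested, and none had groups that did not overlap, against 21.5% of all tested. The log2 fold change was positive for 2 of the 6 and negative for 4, with a median of -0.16, and was positive for 44.0% of all tested, with a median of -0.06. In bulk testis, fewer spermatids and less RNA per spermatid cannot be told apart.

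**Figure D2:**
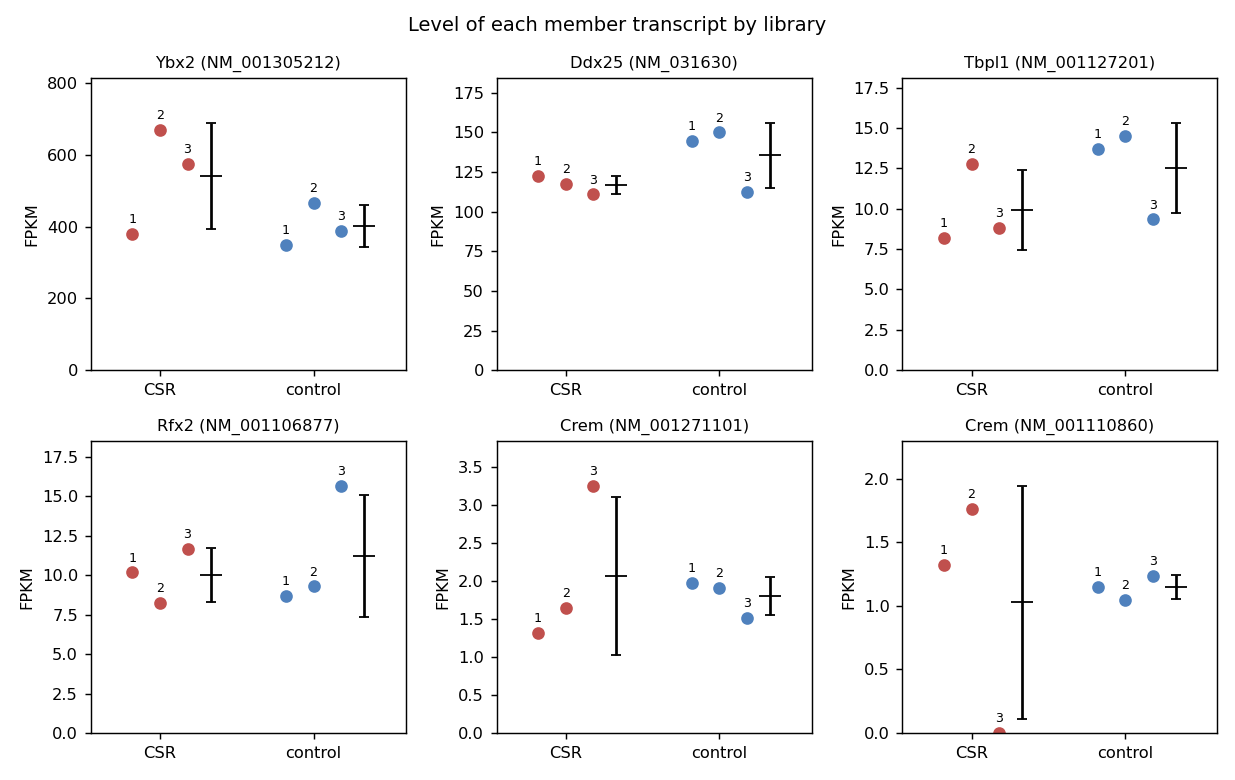
FPKM (y axis, from 0) of each member transcript in CSR libraries 1 to 3 (red, left) and control libraries 1 to 3 (blue, right), with the group mean and SD in black. The groups overlap in every panel, and CSR library 3 is listed at 0 for *Crem* NM_001110860.

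Among the transcription regulators, *Crem* was read through 2 of the 8 curated RefSeq transcripts of its gene. Transcript NM_001110860 had 1.32, 1.76 and 0 FPKM in CSR libraries 1 to 3 and 1.15, 1.05 and 1.24 FPKM in control libraries 1 to 3. The CSR values lay on both sides of all control values, and the 0 can be a failed estimate. Transcript NM_001271101 had 1.31, 1.64 and 3.25 FPKM in CSR and 1.97, 1.91 and 1.51 FPKM in control. The library listed at 0 for NM_001110860 was thus the highest for NM_001271101. Their log2 fold changes were -0.21 (95% interval -1.23 to 0.81, adjusted p 0.799) and 0.09 (-0.60 to 0.77, adjusted p 0.876). Without CSR library 3 both signs turned, to 0.24 and -0.17, and neither passed.

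Summed over both transcripts, *Crem* varied less than either alone when the SD is taken relative to the mean. The sum was 2.63, 3.40 and 3.25 FPKM in CSR libraries and 3.12, 2.96 and 2.74 FPKM in control libraries, or 3.09 ± 0.407 and 2.94 ± 0.189 FPKM (SD, n = 3 each). Its log2 fold change was 0.05 (95% interval -0.35 to 0.45, adjusted p 0.874). NM_001110860 made up 50.2%, 51.8% and 0% of the sum in CSR and 36.8%, 35.4% and 45.1% in control. The sum was looked at after the values of the separate transcripts were known. Whether the division between transcripts comes from the cells or from the estimation of transcript levels was not tested.

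*Rfx2*, the X-box factor, had 10.2, 8.25 and 11.7 FPKM in CSR libraries and 8.67, 9.29 and 15.7 FPKM in control libraries. Control library 3 was the highest and the other controls lay within the CSR range. The means were 10.0 ± 1.71 FPKM in CSR and 11.2 ± 3.88 FPKM in control, a log2 fold change of -0.11 (95% interval -0.72 to 0.49, adjusted p 0.812). Without control library 3 the sign turned, to 0.13, with an adjusted p of 0.643.

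*Tbpl1*, the TATA-binding protein relative, had 8.18, 12.8 and 8.79 FPKM in CSR libraries and 13.7, 14.5 and 9.33 FPKM in control libraries. CSR library 2 lay with control libraries 1 and 2, and control library 3 with CSR libraries 1 and 3. The means were 9.92 ± 2.49 FPKM in CSR and 12.5 ± 2.79 FPKM in control, a log2 fold change of -0.31 (95% interval -0.87 to 0.25, adjusted p 0.504). The log2 fold change was -0.49 without control library 3 or without CSR library 2 and -0.20 without control library 2 or without CSR library 1. It did not pass in any of these.

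The levels of *Tbpl1* and *Rfx2* relative to each other split the libraries in a way that crossed the groups. The ratio of *Tbpl1* to *Rfx2* was 0.804, 1.55 and 0.754 in CSR libraries 1 to 3 and 1.58, 1.56 and 0.595 in control libraries 1 to 3. CSR library 2 and control libraries 1 and 2 thus stood near 1.6, with the 3 highest *Tbpl1* and the 3 lowest *Rfx2* values. The other libraries stood below 1, and within each of these sets both transcripts had their libraries in the same order of level. The mean ratio was 1.04 ± 0.445 in CSR and 1.25 ± 0.564 in control (SD over 3 libraries each), a difference smaller than the spread within either group. The relation was noticed in these 6 libraries and has no test.

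**Figure D3:**
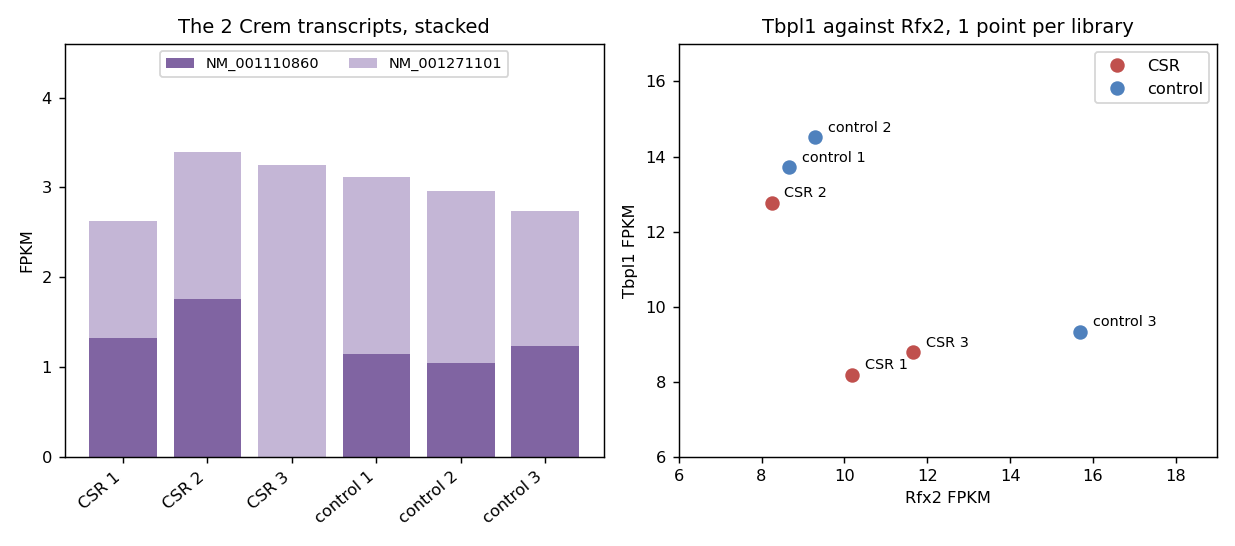
Left, stacked FPKM of both *Crem* transcripts in each library, CSR libraries first; right, *Tbpl1* FPKM (y axis) against *Rfx2* FPKM (x axis), 1 point per library, CSR in red and control in blue. The stacked height stays between 2.63 and 3.40 FPKM while the parts vary, and CSR library 2 lies beside control libraries 1 and 2 in the right panel.

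Of the genes that handle stored messages, *Ybx2* had 380 FPKM in CSR library 1, 669 in CSR library 2 and 576 in CSR library 3, against 350.1, 466 and 388 FPKM in control libraries 1 to 3. CSR libraries 2 and 3 lay above all controls and CSR library 1 lay within the control range. The means were 541 ± 148 FPKM in CSR and 401 ± 59.1 FPKM in control (SD, n = 3 each). On the log2 scale the difference was 0.40 ± 0.23 (standard error) and missed the threshold (adjusted p 0.431). Its 95% interval of -0.16 to 0.97 runs, as a ratio of FPKM + 1, from 0.892 to 1.96. Without CSR library 1 the log2 fold change was 0.64 (adjusted p 0.271) and without CSR library 2 it was 0.23, and over the alternatives run it was positive in 14 of 14 and called in none.

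The Y-box relatives of *Ybx2* were flatter across the libraries. *Ybx3*, a Y-box protein also expressed in germ cells, had 238, 266 and 250.5 FPKM in CSR and 256, 251 and 238 FPKM in control, a log2 fold change of 0.02 (adjusted p 0.920). *Ybx1*, the widely expressed member, had 145, 144 and 137 FPKM in CSR and 116, 121 and 141 FPKM in control, a log2 fold change of 0.18 (adjusted p 0.420). A difference between the changes of these paralogs was not tested. The transcripts whose profile over the 6 libraries lay nearest to that of *Ybx2* were *Mvb12a*, *Dhps* and *Trim42*. Nearness is the root mean square difference of the centred log2(FPKM + 1) profiles, 0.088, 0.13 and 0.13 for these. They were picked as the 3 smallest over all tested transcripts, so they must lie below the median of 0.45. Their nearness is only a description. *Mvb12a* had 3.64, 6.05 and 6.01 FPKM in CSR and 2.96, 3.97 and 3.66 FPKM in control.

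*Ddx25*, the helicase, had 122, 117 and 111 FPKM in CSR libraries and 144, 149.8 and 112 FPKM in control libraries. Control libraries 1 and 2 lay above all CSR libraries, and control library 3 lay within the CSR range. The means were 117 ± 5.72 FPKM in CSR and 135 ± 20.4 FPKM in control (SD, n = 3 each). On the log2 scale the difference was -0.20 ± 0.13 (standard error) and missed the threshold (adjusted p 0.463). The 95% interval was -0.52 to 0.11, from 0.698 to 1.08 as a ratio of FPKM + 1. Without control library 3 the log2 fold change was -0.33 and the limma unadjusted p 0.00491, with an adjusted p of 0.0666, so this transcript did not pass there either. Low p-values were common in that fit: 1374 of the 5657 tested transcripts had an unadjusted p under 0.05 and 259 were called. The log2 fold change of *Ddx25* was -0.12 without control library 2 and -0.15 without control library 1. With control libraries 1 and 2 counted as 1 sample it was -0.14. The ratio of *Ybx2* to *Ddx25* was 3.11, 5.70 and 5.20 in CSR libraries and 2.43, 3.11 and 3.46 in control libraries. It averaged 4.67 ± 1.38 in CSR and 3.00 ± 0.526 in control, and the lowest CSR library lay below the highest controls.

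**Figure D4:**
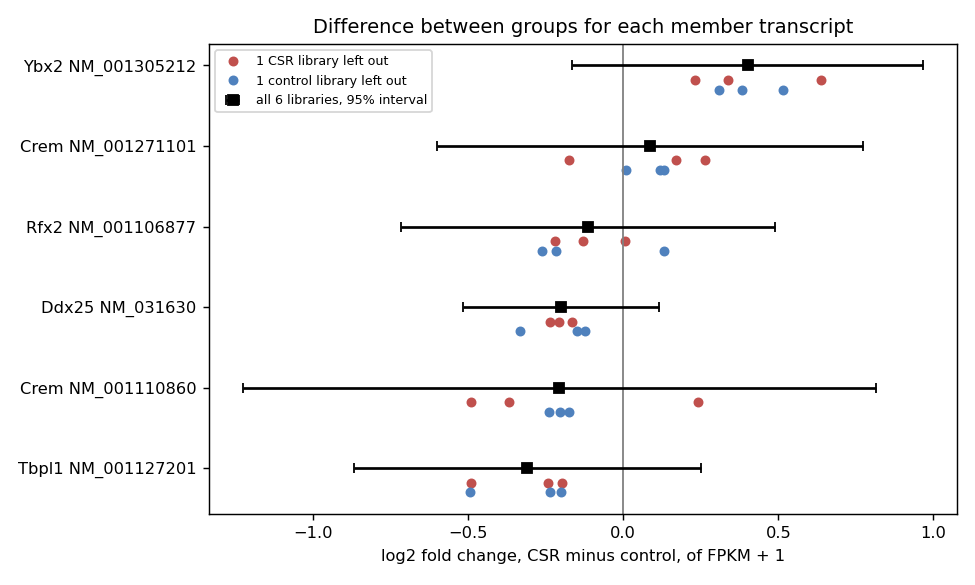
Log2 fold change of FPKM + 1, CSR minus control (x axis), for each member transcript: black squares with 95% intervals from all 6 libraries, and dots with a CSR library (red) or a control library (blue) left out. Every black interval spans 0, and the dots of *Ybx2* stay on the positive side while those of *Ddx25* and *Tbpl1* stay on the negative side.

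Around the members, 5 lists of related genes were followed, with 97 tested transcripts. None was called by limma, and 11 had an unadjusted p under 0.05, which is 11.3% against 13.2% of all tested. Groups did not overlap in 15 of the 97, or 15.5%, against 21.5% of all tested. The log2 fold change was positive for 58 and negative for 39. These lists were drawn up with earlier results of these data known, so their counts are a description.

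Spermatogenic transcription factors and cofactors had 10 tested transcripts, none called, with 6 positive, 4 negative and a median log2 fold change of 0.08. The most abundant were *Fhl5*, the testis coactivator of CREM, *Gtf2a1l*, a germ cell form of the TFIIA large subunit, and *Brdt*, a bromodomain protein of spermatid chromatin. *Fhl5* had 118, 126 and 133 FPKM in CSR and 118, 131 and 119 FPKM in control, far above the 2 *Crem* transcripts measured. Those are 2 of the 8 curated RefSeq transcripts of *Crem*, so the level of the whole gene is not known. *Gtf2a1l* averaged 81.7 ± 3.45 FPKM in CSR and 87.3 ± 3.71 FPKM in control, and *Brdt* 53.7 ± 4.35 and 46.6 ± 19.6 FPKM. The largest positive values were those of *Sox6*, a SOX factor, at 1.66 (adjusted p 0.307), and *Rara*, a retinoic acid receptor, at 0.65. The largest negative ones were those of *Camk4*, a kinase gene that also makes the spermatid protein calspermin, at -0.39, and *Sohlh2*, a factor of spermatogonia, at -0.30.

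*Sox6* had 1.50, 5.54 and 5.94 FPKM in CSR and 0.553, 0.200 and 0.918 FPKM in control. All CSR libraries lay above all control libraries, and the transcript did not pass the threshold over all transcripts. *Camk4* had 1.54, 0.205 and 0.639 FPKM in CSR and 2.35, 1.95 and 0.148 FPKM in control, with control library 3 the lowest of all.

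General initiation factors, the TFIID and TFIIA to TFIIH proteins and RNA polymerase II subunits with which TBPL1 and TAF7L work, had 27 tested transcripts, none called, with 13 positive, 14 negative and a median log2 fold change of -0.02. *Tbp*, the TATA-binding protein itself, had 19.5, 23.8 and 24.5 FPKM in CSR and 28.1, 21.6 and 18.4 FPKM in control, above *Tbpl1* in every library. *Gtf2f1*, a TFIIF subunit and the most abundant of the list, averaged 99.7 ± 7.86 FPKM in CSR and 74.1 ± 18.9 FPKM in control, a log2 fold change of 0.45 (adjusted p 0.372). *Taf7*, the widely expressed relative of *Taf7l*, had 4.84, 4.54 and 0 FPKM in CSR and 5.28, 4.94 and 4.51 FPKM in control. *Polr2c*, a polymerase subunit, had 8.78, 8.88 and 0 FPKM in CSR and 8.25, 8.85 and 9.97 FPKM in control. CSR library 3 is listed at 0 for both, as it is for *Crem* NM_001110860. The largest positive values were those of *Gtf2a2*, the TFIIA small subunit, at 1.60, and *Taf10*, a TFIID subunit, at 0.74. *Gtf2a2* had 31.8 FPKM in CSR library 1 and between 1.31 and 2.76 FPKM in the other libraries, so its value rests on that library.

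Genes of mRNA storage and translation control had 22 tested transcripts, none called, with 14 positive, 8 negative and a median of 0.12. *Pabpc1*, the poly(A)-binding protein and the most abundant of the list, had 30.7, 687 and 835 FPKM in CSR and 808, 631 and 863 FPKM in control. CSR library 1 alone stood apart there. *Papolb*, the cytoplasmic poly(A) polymerase of spermatids, had 150.5, 152 and 144 FPKM in CSR and 179, 12.5 and 12.0 FPKM in control. Control library 1 lay with the CSR libraries for this transcript, and its log2 fold change of 2.24 had an adjusted p of 0.381. *Adad1*, a germ cell RNA-binding protein related to adenosine deaminases, had 48.9, 12.1 and 63.4 FPKM in CSR and 5.65, 2.78 and 4.02 FPKM in control, a log2 fold change of 2.80 (adjusted p 0.204). *Tarbp2*, a double-stranded RNA-binding protein that in mice is needed for protamine translation, had 0, 0.402 and 0.914 FPKM in CSR and 1.88, 2.21 and 2.16 FPKM in control, a log2 fold change of -1.15 (adjusted p 0.283). Groups did not overlap for 3 of the 22, against 21.5% of all tested. These were *Adad1*, *Tarbp2* and *Pabpc4*, which was lower in CSR (log2 fold change -0.84, adjusted p 0.245).

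In the chromatoid body and piRNA pathway, where DDX4, DDX25 and PIWIL1 act, 11 transcripts were tested and none was called, with 7 positive, 4 negative and a median of 0.07. *Mael*, a piRNA pathway protein, was the most abundant at 435 ± 26.5 FPKM in CSR and 414 ± 9.56 FPKM in control. *Gtsf1*, a PIWI partner, averaged 45.7 ± 17.7 FPKM in CSR and 28.9 ± 18.0 FPKM in control, and *Fkbp6*, a cochaperone of the pathway, 16.4 ± 0.693 and 18.6 ± 3.89 FPKM. *Tdrkh*, a Tudor protein, had the largest positive log2 fold change at 0.96 (adjusted p 0.367), followed by *Gtsf1* at 0.86. The largest negative ones were those of *Rnf17*, a Tudor protein of spermatids, at -1.14, and *Asz1*, a piRNA factor, at -0.50. *Rnf17* had 0, 3.65 and 5.10 FPKM in CSR and 6.54, 5.94 and 4.75 FPKM in control, with CSR library 1 listed at 0.

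Stored spermatid messages and CREM-dependent genes had 27 tested transcripts, none called, with 18 positive, 9 negative and a median of 0.19. Groups did not overlap for 6 of the 27, or 22.2%, near the 21.5% of all tested in either direction. All 6 had CSR higher, against 8.96% of all tested in that direction, a direction looked at after the values were seen. Their summed level was 22053, 25399 and 24278 FPKM in CSR and 14576, 16267 and 24169 FPKM in control, with control library 3 within the CSR range. The most abundant were *Tnp1*, *Oaz3*, an antizyme of spermatids, and *Tnp2*, a transition protein. *Tnp2* had 4111, 4329 and 3926 FPKM in CSR and 2668, 3186 and 3816 FPKM in control (log2 fold change 0.37, adjusted p 0.381), and *Oaz3* averaged 4342 ± 166 and 3139 ± 1133 FPKM (0.53, adjusted p 0.399). The largest positive values, 7.59 for *Prm1* and 4.78 for *Prm2*, the protamines, rest on control libraries 1 and 2, which read under 1 FPKM, and did not pass. The largest negative ones were those of *Capza3*, a capping protein subunit, at -0.51, and *Tssk6*, a spermatid kinase, at -0.50. Windows at the starts of this list held the CRE core in 10 of 31, or 32.3%, against 21.2% of all windows, and the full CRE in 1, that of *Tnp1*. Those of the general initiation factors held the core more often, in 19 of 37, or 51.4%, and the full CRE in 3.

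**Figure D5:**
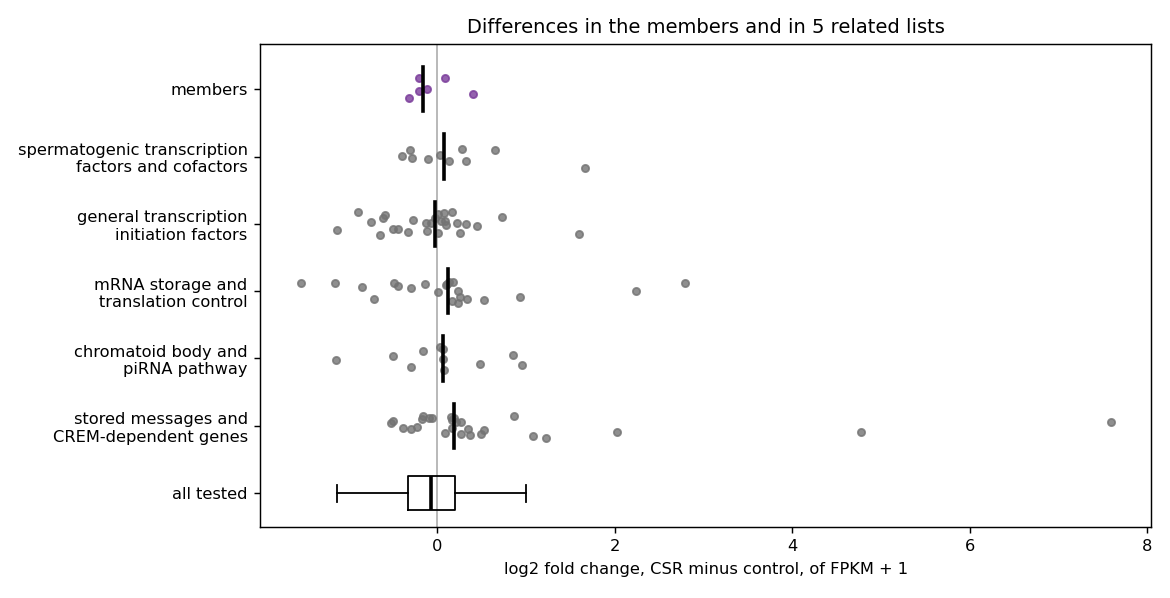
Log2 fold change of FPKM + 1, CSR minus control (x axis), for every tested transcript of the member set (purple) and of 5 related lists (grey), with list medians as black bars and the box (quartiles) of all 5657 tested transcripts at the bottom. The list medians lie between -0.16 and 0.19, and the points far to the right are the protamines *Prm1* and *Prm2*.

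Markers of the cells that hold the members moved with the groups in part. Summed levels of 13 round spermatid marker transcripts were 1007 to 1042 FPKM in CSR and 826 to 986 FPKM in control, and those of 11 elongating spermatid markers were 19744 to 22924 FPKM in CSR and 12473 to 21706 FPKM in control. Of 13 tested round spermatid and 11 tested elongating spermatid markers none was called. Round spermatid markers were positive for 8 and negative for 5, and elongating ones for 9 and 2. Groups did not overlap for 5 of the 13, with CSR higher for 3 and lower for 2. They did not overlap for 3 of the 11, all with CSR higher, against 21.5% of all tested in either direction and 8.96% with CSR higher. The 11 spermatocyte markers summed to 479 to 527 FPKM in CSR and 331 to 467 FPKM in control. Of them 9 were tested and 1, *Ccna1*, was called higher, where 0.442% of all tested transcripts were called. Of these 9, 6 were positive and 3 negative. Groups did not overlap for 4 of the 9, against 21.5% of all tested. *Ccna1*, *Mns1* (log2 fold change 0.89, adjusted p 0.350 by limma) and *Hspa2* (0.20, adjusted p 0.389) were higher in CSR. *Hormad1* was lower in CSR (log2 fold change -0.77, adjusted p 0.363 by limma). Of somatic cells, 8 Sertoli cell markers summed to 87.2 to 88.4 FPKM in CSR and 97.0 to 101 FPKM in control, 7 Leydig cell markers to 76.5 to 125 FPKM and 74.0 to 95.7 FPKM, 8 peritubular markers to 23.9 to 30.0 FPKM and 25.4 to 32.0 FPKM, and 6 macrophage markers to 11.5 to 14.0 FPKM and 13.9 to 17.4 FPKM. Their part in the members' values was not tested. All 8 Sertoli cell markers were tested, with 3 positive, 5 negative and a median log2 fold change of -0.04. The gap between their summed levels lay largely in *Ctsl*, which averaged 31.2 ± 1.55 FPKM in CSR and 40.4 ± 0.673 FPKM in control. Its log2 fold change was -0.36 (adjusted p 0.21 by limma). Groups did not overlap for 2 of the 8, *Ctsl* and *Shbg*, both lower in CSR. Of the peritubular markers *Col1a1* was called lower and is listed at 0 in all CSR libraries, and no Sertoli cell, Leydig cell or macrophage marker was called. A single spermatogonial marker transcript stood at 23.2 to 33.8 FPKM in CSR and 24.7 to 31.2 FPKM in control. The blood marker transcript was listed at 0 in all libraries except CSR library 2, at 2.53 FPKM.

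The more abundant members were also set against the summed round spermatid markers of the same library. *Ybx2* equalled 37.7%, 66.4% and 55.3% of their summed level in CSR libraries and 42.4%, 56.2% and 39.3% in control libraries. *Ddx25* equalled 12.1%, 11.6% and 10.6% in CSR and 17.5%, 18.1% and 11.4% in control, with control library 3 again within the CSR range. Against the summed elongating spermatid markers, *Ybx2* equalled 1.92%, 2.92% and 2.65% in CSR and 2.81%, 3.37% and 1.79% in control, so that its mean was lower in CSR on that scale. *Rfx2* equalled 0.036% to 0.054% of the elongating markers in CSR and 0.067% to 0.072% in control, without overlap. That marker sum was itself higher in CSR than in control libraries 1 and 2, with control library 3 within the CSR range. No other ratio of a member to either marker sum was without overlap. Against the round spermatid markers, *Rfx2* equalled 1.01%, 0.819% and 1.12% in CSR and 1.05%, 1.12% and 1.59% in control. The groups overlapped for the ratios of *Ybx2* and *Ddx25* to round spermatid markers. All these ratios were chosen after the values were seen and have no test.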

How the data were processed

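Testis RNA of 3 CSR and 3 control libraries was analysed, with groups and replicate numbers from the labels. The authors deposited FPKM values for 7016 transcripts. The submitters' processing notes name Trimmomatic, HISAT2, StringTie and rn6. Versions, settings and how transcripts were selected: not given in the sources used here. RefSeq accessions were matched to symbols in a RefSeq gene table of GRCr8 (6911 matched, 105 not). The methylation files were not used here, since no rn6 annotation was at hand to place the genes.

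Values were moved to log2(FPKM + 1), transcripts reaching 1 FPKM in 3 or more libraries were kept, and limma 3.58.1 (R 4.3.3, trend on) was run two-sided, with Benjamini-Hochberg adjustment over all of them and a threshold of 0.05. Fold changes on this scale understate the change of low transcripts. The test was checked on simulated data. Without read counts the depth is unknown, so no counting interval is given. From each related list the text names every called transcript, the 2 largest positive and 2 largest negative log2 fold changes and the 3 highest means. Others were named after their values were seen. The members and lists were chosen with earlier results of these data known. Alternatives changed the pseudocount, filter, scaling, trend, replicate block and the libraries used.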

Additional observations from a re-analysis of the deposited data

How the results depend on the processing

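The sign of *Ybx2*, *Ddx25* and *Tbpl1* was the same in 14 of 14 alternatives each, and no member was called in any of them. Alternatives of filter, trend and block left the log2 fold changes of the members as in the main fit, so they could not turn a sign. Signs turned for *Crem* NM_001110860 with quantile normalization (0.082) and without CSR library 3 (0.24; -0.49 to 0.24 with a library left out), for *Crem* NM_001271101 without CSR library 3 (-0.17; -0.17 to 0.26), and for *Rfx2* without CSR library 2 (0.01) and without control library 3 (0.13; -0.26 to 0.13). The *Crem* transcript listed at 0 in a library could not be judged among transcripts above 0 in all libraries. For *Crem* NM_001110860 the log2 fold change reached -0.95 with a pseudocount of 0.1, against -0.21 with 1. The count over all transcripts, 25, was 11 with a pseudocount of 0.1, 16 among transcripts above 0 in all libraries, 77 without the trend, 7 with control libraries 1 and 2 as 1 sample, and 4 to 259 with a library left out: 14 without CSR library 2, 7 without CSR library 3, 8 without control library 1, 4 without control library 2 and 259 without control library 3; the cause was not tested. With the replicate number as a block the count was 0, with 715 transcripts at an unadjusted p under 0.05. Same-numbered libraries correlated by only 0.009 to 0.042 in their deviations from the group means. The labels do not say whether the numbers are a pairing, and such correlations with 3 libraries a group cannot settle it. Unknown depth and 3 libraries a group limit what differences these data can show.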
